A study of Mus musculus with 3 samples.

Results

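Tet2 CLIP peaks in long non-coding RNA (lncRNA) genes are described here: 231 of the 8196 peaks that 3 libraries hold between them. A peak was a member when its midpoint lay in the span of a RefSeq lncRNA gene and in no span of a protein-coding or small structural RNA gene. Replicate 1 contributed 83 peaks, replicate 2 contributed 79 and replicate 3 contributed 69. They made up 2.82% ± 0.0768 of the peaks and 4.81% ± 0.215 of the summed peak height of a library (SD, n = 3 libraries). Another 310 peaks lay in a lncRNA span but were left out, 303 of them because a protein-coding span also held them and 7 because a small RNA span did. The member nearest to the edge of this rule, in Gm46412, had its midpoint 4 nt outside the coding span of Nup153.

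The libraries are biological replicates of 1 group, in which an antibody to endogenous Tet2 pulled the protein down from ultraviolet cross-linked mast cells. These had been derived in culture, in IL-3 and SCF, from the bone marrow of C57BL/6 mice, and their surface carried FcεRI and c-Kit. CLIP joins a protein to the RNA it touches with ultraviolet light, so that short pieces of that RNA can be recovered with the protein and sequenced. Neither an input nor a control-antibody library was analysed here, and no RNA levels were, so a peak's height cannot be split into Tet2 binding and abundance of the RNA. Heights are the authors' normalized values, expressed in units of their smallest step (1 over 19213, 18270 and 15431 of a library's summed height in replicates 1, 2 and 3). Of the marker genes checked, 6 of 10 for mast cells held a peak, in every library, while Fcer1a, Ms4a2, Cma1 and Mcpt4 held none. Markers of macrophages held a peak in 1 of 6 genes, of neutrophils in 0 of 6, of lymphocytes in 0 of 6 and of erythroid or megakaryocytic cells in 1 of 6. As background, 14.1% of all protein-coding genes had a peak in any library. Lists of 6 genes are too short to tell 0 or 1 from this share.

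Long non-coding RNAs are transcripts without a long reading frame, and many stay in the nucleus. Some act as scaffolds of nuclear bodies or coat chromatin, and others are known chiefly as precursors: the Snhg genes and several others carry small nucleolar RNAs (snoRNAs) or microRNAs in introns or exons that are processed out of the primary transcript. Tet2 oxidises 5-methylcytosine, and the study's stated purpose was to list the RNAs that it binds.

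A peak with the same bounds in every library lay at the edge of a microRNA hairpin. In mm10 coordinates, used throughout, the overlapping genes Gm32817 (chromosome 16, 13447952 to 13476317) and Gm53058 (13447952 to 13467230) held the same peak of 88 nt in all 3 libraries, at 13449445 to 13449532 each time. It stood at 3, 3 and 4 units in replicates 1, 2 and 3, and the lowest height of a lncRNA peak was 3 units. Its last 10 bases are the first 10 of the Mir193b hairpin, and it stopped on the base before the mature miR-193b-5p. As background, the enzyme Drosha frees a microRNA hairpin by cutting near the outer end of the mature arms. Of the microRNAs inside the spans of lncRNA genes with peaks, Mir193b alone was reached by a member peak. The sequences of its hairpin and of some of these microRNAs are shown. They are RefSeq's, on GRCm38.p6, written 5′ to 3′, with capitals for the bases inside the peak in the hairpin and for the seed (bases 2 to 8) in the mature microRNAs.
Mir193b hairpin (chr16:13449523-13449601, plus strand): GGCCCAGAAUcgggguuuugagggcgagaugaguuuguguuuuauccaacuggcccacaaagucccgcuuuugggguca
miR-193b-5p (chr16:13449533-13449554, plus strand): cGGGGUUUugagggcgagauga
miR-193b-3p (chr16:13449570-13449591, plus strand): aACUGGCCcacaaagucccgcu
miR-365-3p (chr16:13453895-13453916, plus strand): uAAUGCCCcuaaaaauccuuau
miR-15a-5p (chr14:61632075-61632096, minus strand): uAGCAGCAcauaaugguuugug
miR-16-5p (chr14:61631936-61631957, minus strand): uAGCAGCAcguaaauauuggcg
miR-675-5p (chr7:142577112-142577133, minus strand): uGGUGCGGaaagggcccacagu
miR-675-3p (chr7:142577078-142577099, minus strand): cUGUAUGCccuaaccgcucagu
miR-6516-5p (chr11:117077370-117077391, plus strand): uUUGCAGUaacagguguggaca
miR-6516-3p (chr11:117077412-117077433, plus strand): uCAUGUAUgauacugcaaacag

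Of 110 lncRNA genes with an annotated microRNA in their span, 6 held a member peak (5.45%), against 121 of all 12731 lncRNA genes (0.950%). Among the 6, Gm32817 and Gm53058 overlap and share the same peak. Of all 49997 annotated genes, 6.93% held a peak of any class in at least 1 library. Longer spans give a peak more room, and that difference was not tested. Mir365-1, downstream of Mir193b on the same strand, lay 4308 nt from the peak of Gm32817. miR-15a-5p and miR-16-5p share the seed AGCAGCA, and no other seed was shared among the mature microRNAs of these hosts. Their host Dleu2, a lncRNA of a locus deleted in human B cell leukaemia, held 1 peak each in replicates 2 and 3, both of 3 units, and none in replicate 1. These peaks lay at 61681564 to 61681672 and at 61648211 to 61648250 on chromosome 14, far from each other and at least 16101 nt from Mir15a.

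H19, the imprinted RNA that is the precursor of miR-675, carried 2 recurrent sites within a span of 2617 nt on chromosome 7 (142575530 to 142578146). The taller site reached 25, 28 and 18 units in replicates 1, 2 and 3, and the other reached 12, 13 and 16 units. The nearest of the 6 peaks ended 149 nt from the Mir675 hairpin, and no peak of any class overlapped that hairpin. At the taller site the peaks of replicates 2 and 3 overlapped (142576851 to 142576883 and 142576849 to 142576883), while that of replicate 1 began 3 nt further on, at 142576886. Snhg20, the host of Mir6516, held a peak of 3 units in replicates 1 and 3 and none in replicate 2. Both lay upstream of the microRNA, 326 and 341 nt away.

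snoRNA hosts held low peaks at a distance from their snoRNAs. The rule for members itself bars a peak centred in a small RNA span, so distance is partly set by it. The 7 peaks left out for this reason lay in Gm39429, Gm40831 and LOC115487798, not in these hosts. Of 108 lncRNA genes with an annotated snoRNA, 4 held a member peak (3.70%), at 3 distinct loci, against 0.950% of all lncRNA genes. None of the 4 held one in all 3 libraries, where 26.4% of all lncRNA genes with a member peak did. The overlapping genes 2700038G22Rik and Gm42228, which contain Snord93, shared 1 peak of 4 and 5 units in replicates 1 and 2, and the nearer edge lay 1382 nt from the snoRNA. Rian, an imprinted RNA that carries a cluster of box C/D snoRNAs, held a peak of 3 units in replicates 1 and 2 (chromosome 12, 109612995 and 109612993 to 109613038). It lay 1052 nt from Mir1188 and 18036 nt from the first annotated snoRNA. Epb41l4aos held 1 peak of 3 units, in replicate 1, at 98 nt from the annotated snoRNA Gm23639. Among the 17 annotated Snhg genes Snhg20 alone held a peak of any class. Snhg1, Snhg3, Snhg5, Snhg6, Snhg8, Snhg12 and Snhg15, which are snoRNA hosts, held none, and neither did Gas5. A gene without a peak here may still have had signal below the heights the lists hold. Gm41774 on chromosome 18, which contains 2 annotated guide RNAs, Scarna17 and Gm23119, held a peak of 7, 8 and 6 units. These peaks lay between the guide RNAs, 59 to 80 nt from Scarna17 and 14 to 33 nt from Gm23119.

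A few genes held most of the height. The 7 lncRNA genes with the tallest peaks were Gm36876, Gm34295, D130009I18Rik, Gm30821, Gm19951, AY036118 and Gm24105, all known by a clone or prediction name only. So were 107 of the 121 lncRNA genes with a member peak. The 7 genes carried 54.2%, 54.3% and 56.6% of the summed lncRNA height in replicates 1, 2 and 3. Gm36876 on chromosome 11 alone carried 19.7%, 20.1% and 23.4%, with 1 peak of 175, 174 and 182 units. Gm34295 on chromosome 18 reached 87, 68 and 79 units, and Gm30821 on the same chromosome reached 53, 43 and 49 units. D130009I18Rik on chromosome 14 reached 52, 53 and 51 units at 104715816, 104715800 and 104715800. Gm19951 on chromosome 12 reached 50, 51 and 39 units, and Gm24105 on chromosome 5 reached 40, 23 and 30 units. At Gm24105 replicate 1 stood highest and replicate 2 lowest. In proportion to their height, the tallest peaks of Gm36876, Gm34295, Gm30821, D130009I18Rik and Gm19951 varied less between libraries. AY036118 was unlike them: its 1 peak of 43 units, 3 nt wide, was in replicate 2 alone. It lay 560 nt past the end of the 18S ribosomal RNA locus Rn18s-rs5 on chromosome 17. At the other end, 72 of the 121 genes held a peak in 1 library only, and 65 of these stood at 4 units or fewer. This was common in the series: of 3086 protein-coding genes with a peak, 1695 held one in 1 library only. The median height of protein-coding peaks was 4 units in every library.

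**Figure D1:**
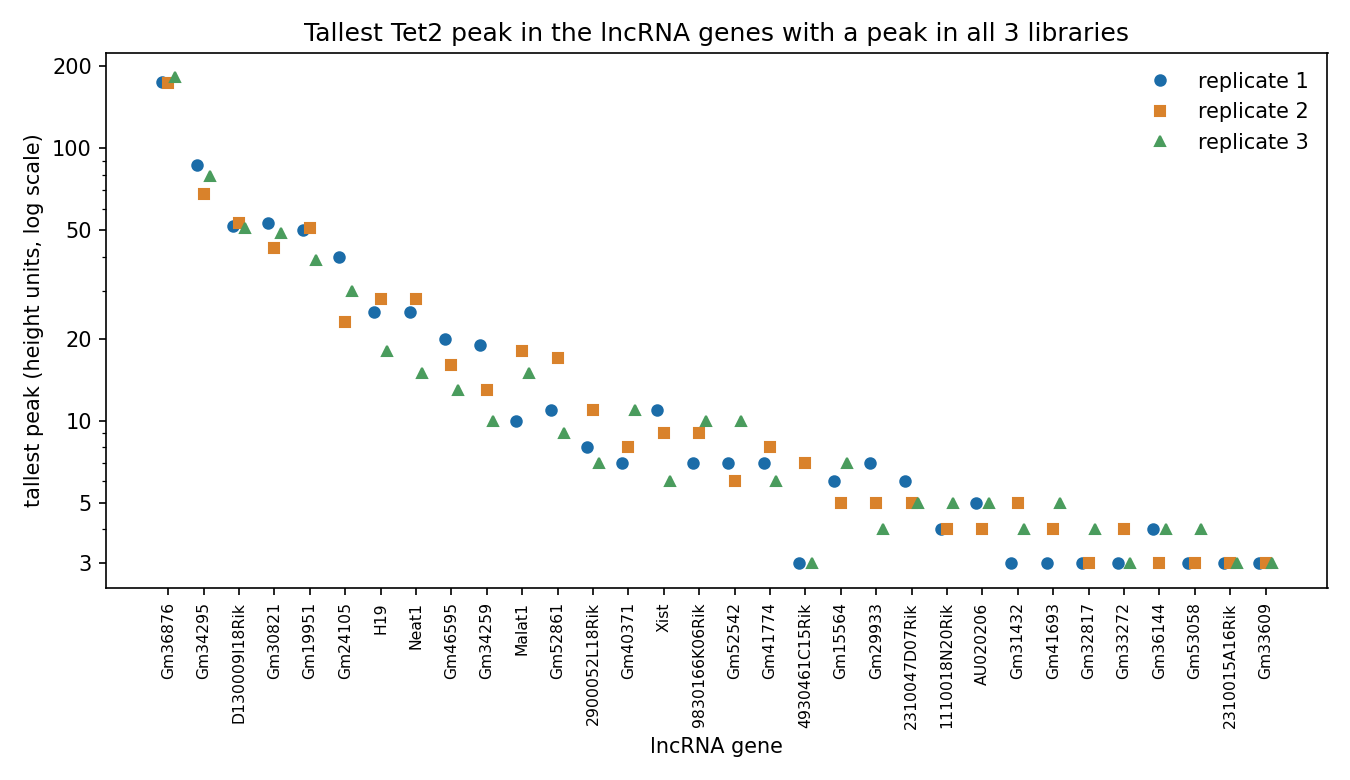
The tallest peak of each library (height units, log scale) is plotted for the 32 lncRNA genes that held a peak in all 3 libraries, with a symbol and colour per replicate. Gm36876 stands at 175, 174 and 182 units, and the lowest genes, such as Gm33609, stand at 3 units in each library.

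Among genes with a descriptive name the tallest peaks were those of Neat1 and H19, followed by Malat1 and Xist. Neat1, the scaffold of paraspeckles (chromosome 19, 5824708 to 5845480), held 3, 7 and 4 peaks in replicates 1, 2 and 3, and its 14 in all were the most of any lncRNA gene, ahead of 8 in 2900052L18Rik. Its main site, at 5843069 to 5843111, reached 25, 28 and 15 units. Near the upper end of the span, 2 lower sites recurred in all 3 libraries, at 4 units in each library and at 3, 4 and 6 units. The other 5 Neat1 peaks were single to a library and stood at 3 to 6 units.

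Malat1, an RNA of nuclear speckles and a neighbour of Neat1, held 1 peak in each library, of 10, 18 and 15 units, between 5801092 and 5801117. Those of replicates 1 and 2 overlapped, and that of replicate 3 lay past them, at 5801117. Xist, the RNA that coats the inactive X chromosome, reached 11, 9 and 6 units between 103482031 and 103482071. The span of its antisense partner Tsix also covers these positions, and without strand the peaks cannot be credited to either RNA. In the list of nuclear and X-inactivation RNAs, 3 of 7 genes held member peaks, in every library, against 0.950% of all lncRNA genes with a member peak in any library. Jpx, Ftx and Firre held none. Of 8 imprinted RNAs, H19 and Rian held a peak, and Meg3, Mirg, Airn, Kcnq1ot1, Peg13 and Nespas did not.

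The peaks found in growth-related and immune RNAs stood at 3 or 4 units, where the median of all lncRNA peaks was 4 units. Among 9 growth-related or cytoplasmic RNAs, 4 held a peak (44.4%), against 0.950% of all lncRNA genes with a member peak. None of the 4 held one in all 3 libraries, where 26.4% of all lncRNA genes with a member peak did. A list of 4 genes is too short to tell these apart. Lncpint, an RNA induced by p53, held 1 peak of 4 units in replicate 2, and Miat held 1 of 3 units in replicate 1, beside Dleu2 and Epb41l4aos. Norad, Tug1, Pvt1, Gas5 and Dancr held none. Among 13 immune and haematopoietic RNAs, Morrbid alone held a peak (7.69%, against the same 0.950%), of 3 units in replicates 1 and 2, at positions far apart. Morrbid is known in mice for controlling the lifespan of short-lived myeloid cells through the neighbouring gene Bcl2l11. Mir155hg, Mir17hg, Mir22hg and Hotairm1 held none. The Mir17hg span used here starts past the Mir18 hairpin, where replicate 1 had a peak of 5 units (chromosome 14, 115043801 to 115043866). Of the lncRNA genes with a descriptive symbol, 14 of 415 held a member peak (3.37%), against 107 of 12316 with a clone or prediction name (0.869%).

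**Figure D2:**
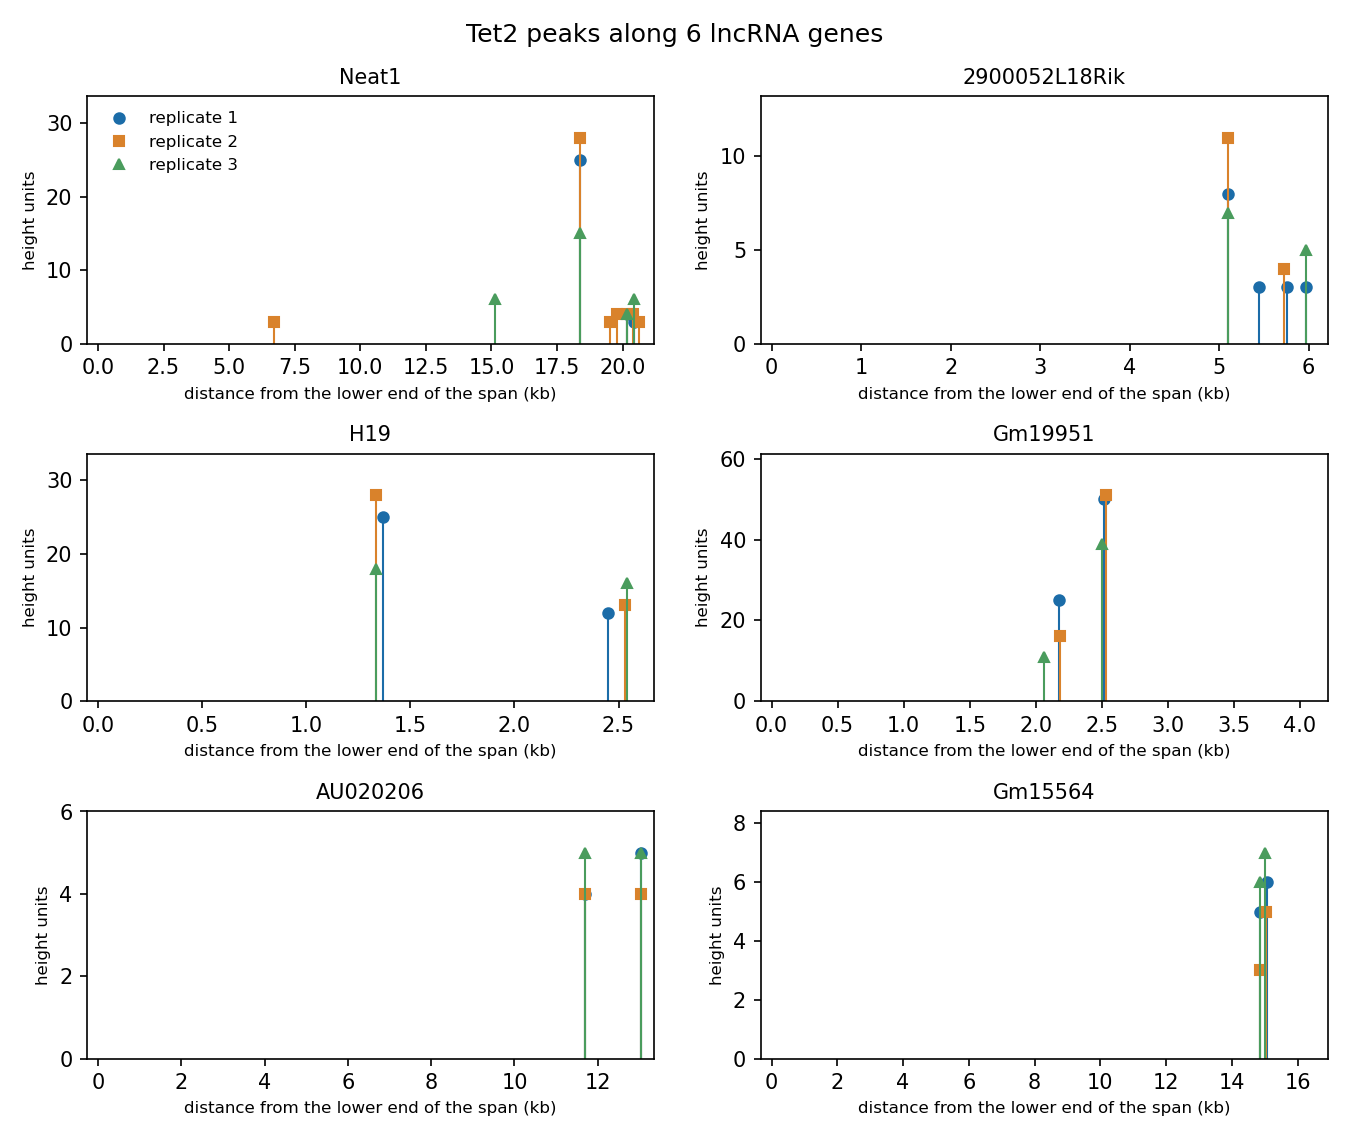
Peak heights (units) are plotted by distance from the lower end of the gene span (kb) for 6 of the genes with the most peaks, with a symbol and colour per replicate. Neat1 shows 1 site of 25, 28 and 15 units and a cluster of low peaks near the upper end of the span, and in AU020206 and Gm15564 the peaks of the 3 libraries fall on 2 sites each.

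Several little-studied genes held repeated low peaks. AU020206 on chromosome 7 (75769038 to 75782120, minus strand) held 2 peaks in each library. One had the same bounds in all 3, at 75780690 to 75780756, with 4, 4 and 5 units. The other began at 75782052 in all 3 and stood at 5, 4 and 5 units. 2900052L18Rik on chromosome 11 held 4, 2 and 2 peaks, and its main site reached 8, 11 and 7 units. Gm15564 on chromosome 16 held 2 sites, of 5, 3 and 6 units and of 6, 5 and 7 units. Gm29933 on chromosome 11 held 1, 2 and 2 peaks, with tallest heights of 7, 5 and 4 units, but had no site common to all 3 libraries. Gm46595 and Gm34259, both on chromosome 17, were taller, at 20, 16 and 13 units and at 19, 13 and 10 units. Of the remaining genes with a locus in all 3 libraries, Gm52861 reached 11, 17 and 9 units, Gm40371 reached 7, 8 and 11 and 9830166K06Rik reached 7, 9 and 10. The recurrent peaks of 2310047D07Rik, 1110018N20Rik, Gm31432, Gm36144, 2310015A16Rik and Gm33609 stood between 3 and 6 units in every library.

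Some of these peaks reached the start of a gene, where sequence was at hand. Member peaks overlapped a window of 300 bases around an annotated start (250 bases before it and 50 after) in 23 cases. The start was often that of a neighbouring coding gene. A peak that lay in several windows could count more than once, so the number of peaks is lower, and not every member peak was checked. The windows of 4 of these sites, each with a peak in at least 2 libraries, are printed with the bases inside the peak in capitals. They are RefSeq's, on GRCm38.p6, 5′ to 3′ on the strand of the gene named.
Lama5 window, peak of Gm52542 in replicate 1 (chr2:180225810-180226109, minus strand): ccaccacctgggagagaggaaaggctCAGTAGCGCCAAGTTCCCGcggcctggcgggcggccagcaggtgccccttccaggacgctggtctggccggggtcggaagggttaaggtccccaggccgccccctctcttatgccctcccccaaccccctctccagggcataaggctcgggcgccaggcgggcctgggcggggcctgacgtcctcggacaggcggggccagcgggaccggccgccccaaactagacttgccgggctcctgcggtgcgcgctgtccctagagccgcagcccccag
AU020206 window, peak of replicate 3 (chr7:75782071-75782370, minus strand): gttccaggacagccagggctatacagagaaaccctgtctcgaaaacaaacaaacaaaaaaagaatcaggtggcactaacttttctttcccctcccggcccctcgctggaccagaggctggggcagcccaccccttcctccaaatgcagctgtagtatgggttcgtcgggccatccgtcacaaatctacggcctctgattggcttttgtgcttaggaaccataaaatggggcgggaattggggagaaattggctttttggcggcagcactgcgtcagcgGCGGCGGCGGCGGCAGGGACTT
Gm15564 window, peak of replicate 2 (chr16:35981798-35982097, minus strand): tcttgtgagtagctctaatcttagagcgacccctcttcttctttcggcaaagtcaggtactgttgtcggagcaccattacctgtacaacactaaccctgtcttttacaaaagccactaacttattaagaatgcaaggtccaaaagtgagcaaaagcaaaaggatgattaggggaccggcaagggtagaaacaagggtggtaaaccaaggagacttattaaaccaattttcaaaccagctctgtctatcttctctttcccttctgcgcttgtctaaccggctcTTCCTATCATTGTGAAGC
Parp6 window, peak of Gm51709 in replicate 2 (chr9:59617034-59617333, plus strand): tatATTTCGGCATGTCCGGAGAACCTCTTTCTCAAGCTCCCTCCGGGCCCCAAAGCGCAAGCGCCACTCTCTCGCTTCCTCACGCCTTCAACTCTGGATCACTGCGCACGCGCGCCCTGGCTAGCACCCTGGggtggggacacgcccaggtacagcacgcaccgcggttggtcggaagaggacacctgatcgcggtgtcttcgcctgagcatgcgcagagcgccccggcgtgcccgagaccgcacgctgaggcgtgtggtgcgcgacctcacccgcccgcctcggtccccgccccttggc

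The peak of Gm52542 on chromosome 2 lay wholly within the window before Lama5, which encodes a laminin chain and runs on the other strand. It covered 19, 17 and 15 bases in replicates 1, 2 and 3 and stood at 7, 6 and 10 units. The window holds 72.7% G and C, and the bases of the peak hold 63.2%, 64.7% and 73.3% in replicates 1, 2 and 3. In AU020206 the peak covered the last 22 bases of the window in replicate 3, 19 in replicate 1 and 16 in replicate 2. These bases lie after the start and hold 81.8%, 78.9% and 75.0% G and C in replicates 3, 1 and 2, against 55.7% over the window. The peak of Gm51709, whose start window overlaps that of the ADP-ribosyltransferase gene Parp6 on the opposite strand, stood at 6 and 4 units in replicates 1 and 2 and was not found in replicate 3. In replicate 2 its bases within the Parp6 window held 62.8% G and C, against 67.7% over that window. At Gm15564 the 18 bases of replicate 2 that the window holds had 38.9% G and C, against 43.7% over the window.

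Start windows were given for 93 of the 121 lncRNA genes with a member peak. Their median window held 56.7% G and C and 11 CG dinucleotides (the letters CG, the same on both strands). Over all 9533 lncRNA genes with a window the medians were 48.7% and 4. At least 10 CG dinucleotides were present in 54.8% of the windows of genes with a peak, against 19.7% of all. For the 24 genes with a window and member peaks in all 3 libraries, the medians were 52.0% and 10, and the share was 54.2%. This describes the genes and was not tested, and the share of each group that is transcribed in mast cells was not measured here.

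Joining overlapping peaks (1 nt or more) gave 161 lncRNA loci, of which 23 (14.3%) were found in every library, 24 in a pair of libraries and 114 in a single one. The share in all 3 over all 5969 loci of the series was 11.1%, and over protein-coding loci it was 10.6%. At the gene level, 32 of the 121 lncRNA genes (26.4%) held a peak in every library, against 22.4% of all genes with a peak. Of those 32 genes, 21 had a locus that overlapped in all 3 libraries. Another 9 had peaks in all 3 that met only once peaks within 100 nt were joined into a site, and 2, Gm29933 and Gm33272, had no common site.

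With peaks within 100 nt joined, a rule added after the overlaps were seen, 35 of 144 lncRNA sites (24.3%) were present in all 3 libraries. For all sites of the series the share was 14.7%, and for protein-coding sites 13.6%. The 35 sites included 19 with a peak of 10 units or more, and in 9 of these 19 all 3 pairs of libraries overlapped. The midpoints of these 19 sites spread over 1 to 123 nt, with a median of 23 nt. At Gm36876, the tallest, the peaks were 2, 2 and 1 nt wide, at 109011973, 109011899 and 109011889 in replicates 1, 2 and 3, and no pair overlapped. No pair overlapped at Gm46595 or at the lower H19 site either. By contrast, 4 intervals were the same to the base in all 3 libraries, in AU020206, Gm32817 with Gm53058, 2310015A16Rik and Gm33609, and all stood at 5 units or fewer.

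**Figure D3:**
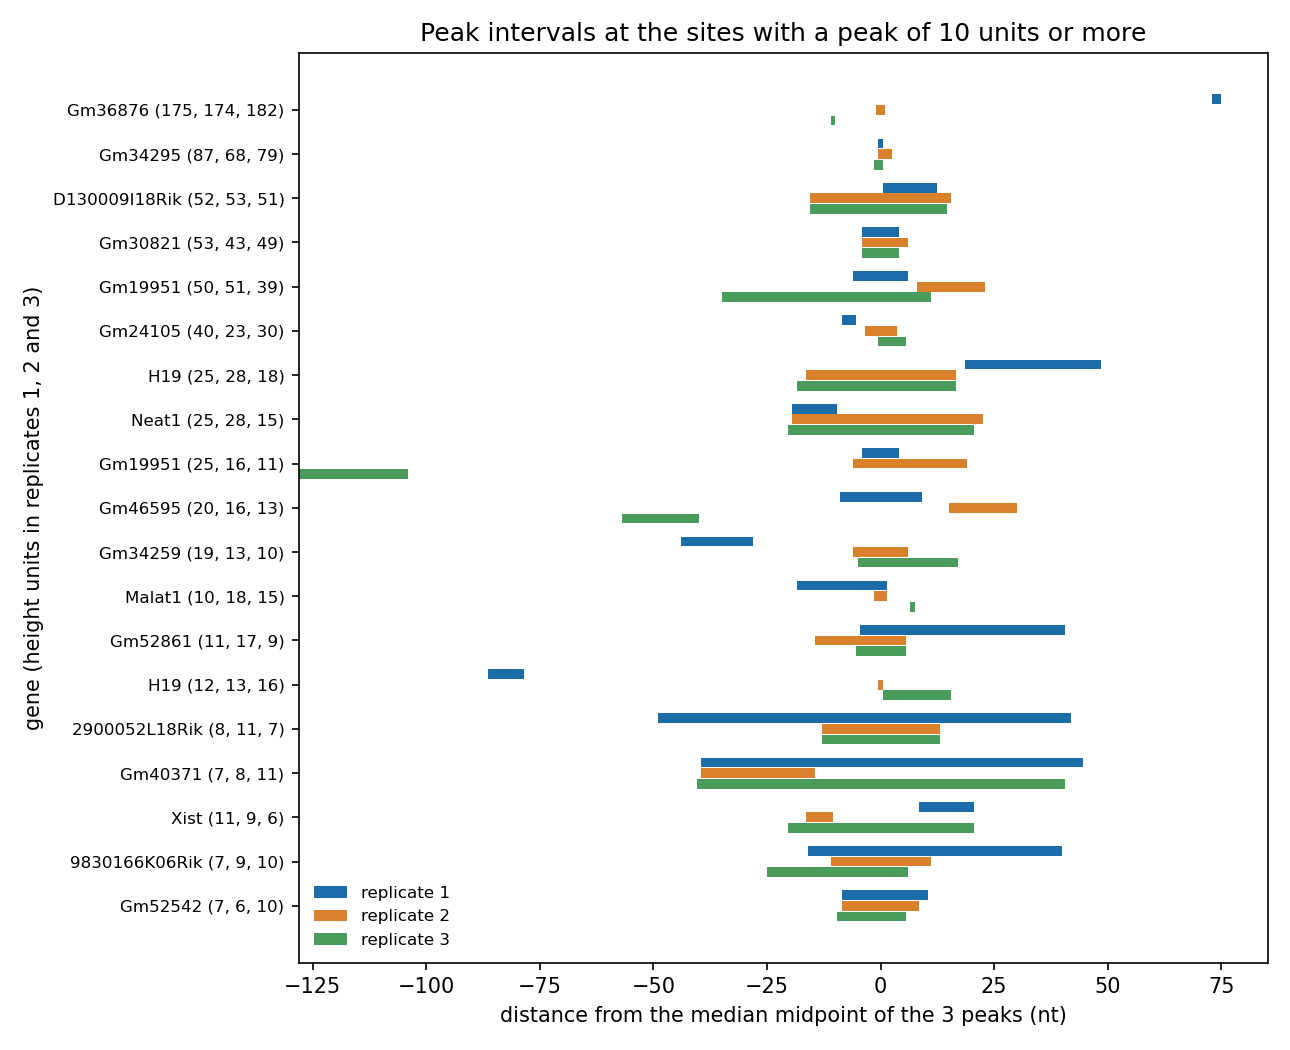
Each bar is the interval of the tallest peak of 1 library at the 19 lncRNA sites with a peak of 10 units or more, by distance (nt) from the median midpoint of the 3 peaks, with the heights in replicates 1, 2 and 3 after the gene name. The bars of Gm36876 lie up to 84 nt apart, while those of Gm34295 and Gm30821 lie on each other.

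Overlap between libraries was more frequent for lncRNA peaks than for protein-coding peaks in each library, but not than for peaks outside gene spans. A lncRNA peak overlapped a peak of another given library in 39.6% ± 2.83 of cases, against 33.9% ± 3.52 for protein-coding peaks (SD, n = 3 libraries). The difference was 7.01, 4.76 and 5.38 percentage points in replicates 1, 2 and 3 (exact sign-flip permutation test over libraries, two-sided, p = 0.25). Peaks outside gene spans overlapped in 41.2% ± 5.40 of cases, and lncRNA peaks differed from them by 2.20, -4.10 and -2.85 percentage points (exact sign-flip permutation p = 0.5). With 3 libraries 0.25 is the smallest p this test can give, so no comparison of this kind could pass 0.05. At 4 units or fewer the shares were 26.5% ± 1.76 and 22.7% ± 3.01 and did not differ in the same direction in every library. At 5 to 9 units they were 61.4% ± 3.20 for lncRNA peaks and 48.7% ± 8.42 for protein-coding peaks (SD, n = 3 libraries). Among peaks of 10 units or more the share was 54.1% ± 6.62 for lncRNA peaks and 74.8% ± 0.969 for protein-coding peaks (SD, n = 3 libraries). The difference of -20.7 ± 6.97 percentage points had the same sign in 3 of 3 libraries (exact sign-flip permutation p = 0.25). Against the 72.7% ± 0.159 of tall peaks outside gene spans, the difference was -18.6 ± 6.48 percentage points, again with 1 sign in 3 of 3 libraries (exact sign-flip permutation p = 0.25). These values rest on 15, 16 and 16 lncRNA peaks. When a peak within 100 nt also counted, the shares became 95.8% ± 1.75 for lncRNA peaks and 93.4% ± 1.16 for protein-coding peaks (SD, n = 3 libraries). The median width of peaks of 10 units or more was 12, 13.5 and 19.5 nt in lncRNA genes, against 23, 25 and 24 nt in protein-coding genes.

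**Figure D4:**
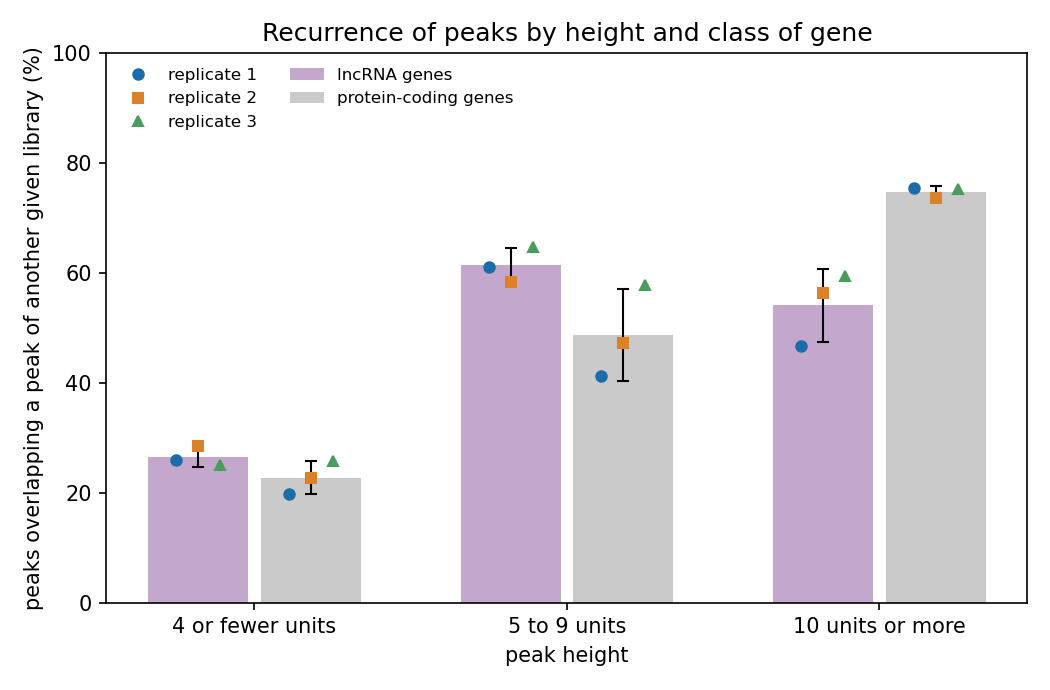
Bars give the mean share of peaks (%) that overlap a peak of another given library, by peak height, for lncRNA genes on the left and protein-coding genes on the right of each pair. Error bars are the SD over 3 libraries and symbols the libraries, and at 10 units or more the lncRNA values of 46.7% to 59.4% all lie below the protein-coding values of 73.7% to 75.4%.

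lncRNA peaks were taller on average than protein-coding peaks through a small number of tall ones, and peaks outside all gene spans shared this. Peaks of 20 units or more made up 10.7% ± 1.78 of lncRNA peaks, 10, 9 and 6 peaks in replicates 1, 2 and 3, against 1.94% ± 0.243 of protein-coding peaks and 13.5% ± 1.44 of peaks outside gene spans (SD, n = 3 libraries). The median height was 4 units in both classes in every library. Mean height was higher in lncRNA genes by 0.38 ± 0.08 on the log2 scale (SD, n = 3 libraries, higher in 3 of 3, exact sign-flip permutation p = 0.25). Without peaks of 20 units or more, a setting added after the data were seen, the difference was -0.04, 0.02 and 0.21 in replicates 1, 2 and 3. Its mean of 0.06 is smaller than the spread between libraries (SD 0.13, exact sign-flip permutation p = 0.75). Against peaks outside gene spans, mean height in lncRNA genes differed by -0.08 ± 0.03 on the log2 scale (SD, n = 3 libraries, lower in 3 of 3, exact sign-flip permutation p = 0.25). All peaks together had a median width of 46, 35 and 40 nt in lncRNA genes, against 55, 55 and 56 nt in protein-coding genes and 43, 46 and 41.5 nt outside gene spans.

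**Figure D5:**
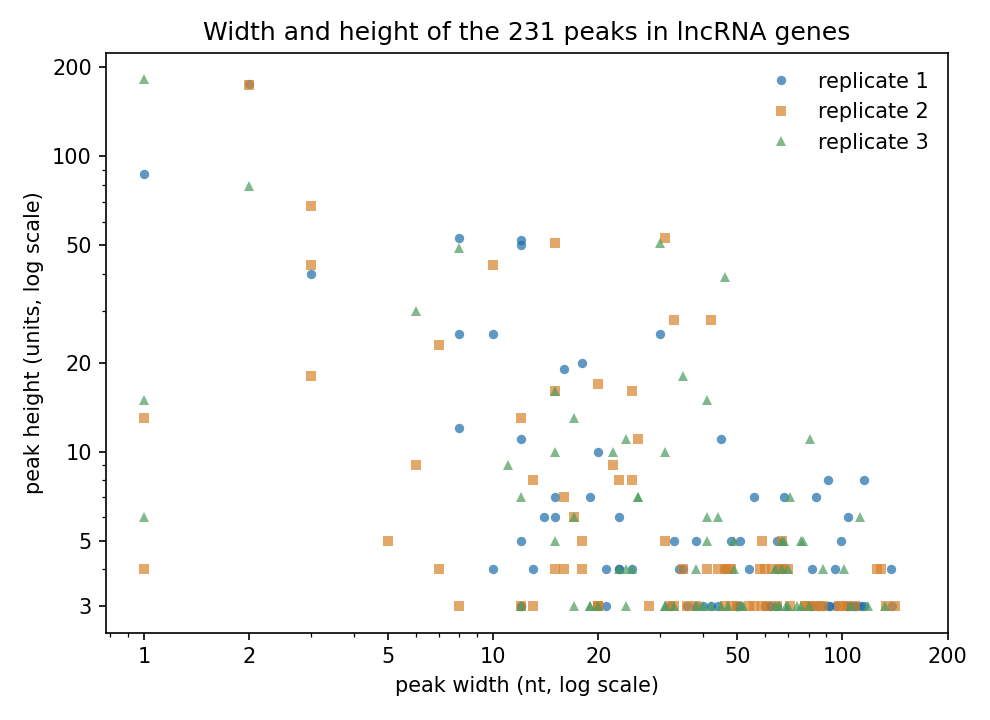
Height (units) is plotted against width (nt) for the 231 lncRNA peaks, both on log scales, with a symbol and colour per replicate. The tallest peaks, those of Gm36876 at 174 to 182 units, are 1 or 2 nt wide, and most peaks of 3 or 4 units are wider than 20 nt.

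Position along the host RNA was also compared. A strand was at hand for 93 host genes, but Neat1, H19, Gm34295, Gm30821 and Gm24105 were among those without one. This left 163 lncRNA peaks in a single host of known strand. The first 10% of the span, at the 5′ end, held 28.8%, 41.1% and 33.3% of these peaks in replicates 1, 2 and 3, and the mean of 34.4% was close to the 34.0% of protein-coding peaks. The last 10% held 3.14% ± 1.29 of lncRNA peaks, against 12.4% ± 1.10 of protein-coding peaks (SD, n = 3 libraries). It was lower in lncRNA genes in 3 of 3 libraries, with differences of -10.6, -9.95 and -7.15 percentage points (exact sign-flip permutation p = 0.25). Exons were not used here, so it is not known which part of each span is present in the mature RNA.

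Many of the peaks lay close to coding genes. A protein-coding span began or ended within 5000 nt of the midpoint of 38.6%, 25.3% and 37.7% of the lncRNA peaks in replicates 1, 2 and 3 (33.9% ± 7.40, SD, n = 3). For peaks outside all gene spans the share was 41.6% ± 1.92 (SD, n = 3). Of the length of all lncRNA spans outside coding and small RNA genes, 7.88% lies this near to a coding span. Among the 32 genes with a peak in every library, 9 had one within 5000 nt of a coding span, such as Gm52542 at 167 nt from Lama5 and 4930461C15Rik at 249 nt from Dcbld2. In these examples the peaks lie before the annotated start of the coding gene. Where a peak lies past the end of a coding gene, RNA that runs on from that gene cannot be told apart from the lncRNA. The peaks carry no strand. Of the genes with the tallest peaks, Gm36876 was 61106 nt from Axin2, and D130009I18Rik was 193102 nt from Obi1. The host genes were also longer than lncRNA genes in general, with a median span of 14195 nt against 8427 nt.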

How the data were processed

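The authors deposited 1 table of peaks for 3 Tet2 CLIP libraries, with the position and normalized height of each. Per the submitters' processing notes, cutadapt 1.9, STAR 2.4.0i and the build mm10 were used. Per the labels' protocols, peaks came from a valley-seeking algorithm. Its settings are not stated there. The deposited heights are a signal that sums to 1 in each library. They are whole multiples of 1 step, within 0.05 of a step, and were printed in steps. It is not stated that a step is 1 read, so depth is unknown and no count model was used.

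Each library's block heading bears the replicate number of its label. The labels name no separate animals, so the SD may be partly technical. Starts were read as 0-based and are printed 1-based. Peaks were assigned by midpoint to RefSeq spans of GRCm38.p6, which carry no strand or exons. Small structural RNA genes were set by annotated type, microRNAs included. Strand and sequence came from RefSeq's start windows and microRNAs. Cytor, Mir142hg and Spehd had no entry under these names and were not analysed here. Peaks were joined into loci by an overlap of at least 1 nt, each peak's sharing being averaged over both other libraries. Classes were compared by exact sign-flip tests over libraries (Python 3.11.15, pandas 2.3.3), tried on simulated peaks first. Named were genes with a locus in all 3 libraries, the 10 tallest, the 5 with most peaks, bound Snhg genes and small RNA hosts, and listed RNAs. Gm29933, Gm33272, Gm34259, Gm41774, Gm46412, 4930461C15Rik and Gm51709 are outside this rule and were named after their values were seen. Members and lists were chosen with earlier results of these data known. Position along spans, start windows, microRNA edges and the comparison with peaks outside gene spans were added after the files were seen.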

Additional observations from a re-analysis of the deposited data

How the results depend on the processing

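No paired analysis was possible because the series has 1 group, so conditions cannot be paired by replicate number. The class comparisons are differences within each library. The share of peaks in lncRNA genes (2.82% in the main setting) became 2.73% when any overlap assigned a peak, 3.24% with peaks of at least 5 units, 2.74% without peaks under 10 nt wide and 2.32% with coding spans widened by 1000 nt. The share of height (4.81%) became 5.89% with peaks of at least 5 units, 3.43% without peaks of 50 units or more, 2.82% without those of 20 or more, 3.60% without narrow peaks and 4.47% with widened coding spans. The share of loci in all libraries (14.3%) became 24.3% both when midpoints within 200 nt counted as shared and when peaks within 100 nt were joined. It was 24.4% to 24.6% when 1 replicate was left out, where presence in both remaining libraries was asked. With peaks of at least 5 units, 41 of the 121 genes, 0 of the Snhg genes and 3 of the 9 microRNA or snoRNA hosts remained. Differences from protein-coding peaks kept their sign in all alternatives run: 3.27 to 13.6 points for recurrence over 11, 0.06 to 0.41 for log2 height over 7 and -18.0 to -12.3 nt for width over 5. The differences of 0.19 without peaks of 50 units or more and 0.20 without narrow peaks were the next lowest for height. For recurrence the sign was the other way among peaks of 10 units or more alone (-20.7 points). That cut was not among these alternatives. Depth is unknown and limits what absence from a list means.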

Other observations

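The edge seen at Mir193b was looked for over the whole series after it was noticed. In all, 9 peaks at 7 microRNAs stopped on the base before the 5′ end of a mature microRNA: the 3 of Gm32817 with Gm53058 at miR-193b-5p, and 1 each at let-7i-5p and miR-18a-5p in replicate 1 and at miR-142a-5p, miR-219a-5p, miR-24-1-5p and miR-671-5p in replicate 2. Another 5 peaks had that edge 1 to 10 nt away on either side. At the 3′ end of mature microRNAs, 0 peaks began on the next base, and 4 had their edge 1 to 10 nt from it. The peaks at let-7i-5p and miR-219a-5p lie on minus-strand microRNAs, where the match holds only if starts are 0-based. These microRNAs were chosen by this edge, so the counts are a description.

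Among the 7 peaks left out because a small RNA span held them, the tallest lay in Gm39429 on chromosome 9, at the annotated Mir6236. They reached 81, 73 and 70 units in replicates 1, 2 and 3. In LOC115487798 on chromosome 11, peaks of 12, 9 and 8 units fell on the small RNA gene Rnu3b1, within the coding span of Tex14 as well.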
